A study of Homo sapiens with 42 samples.

Results

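Described here are 1045 peaks of N6-methyladenosine (m6A) that were called in HepG2 cells with METTL3, with METTL14 and with WTAP knocked down and had no counterpart in the list of the control cells. They were selected on peak calls, as the peaks of the METTL3 knockdown list that shared no base on the same strand with any peak of the control list but shared at least 1 base with a peak of the METTL14 list and with a peak of the WTAP list. They make up 3.44% of the 30352 METTL3 peaks, and 211410 peaks were listed over all 7 conditions. The members were chosen by the calls of these 4 lists, so the members' absence from the control and their presence in the 3 knockdown lists are a description and not a finding. The other 2161 METTL3 peaks without a control counterpart, called the other METTL3 gains below, and the 27146 METTL3 peaks shared with the control serve as comparison.

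m6A is an adenosine carrying a methyl group within messenger RNA. It is placed co-transcriptionally by a complex in which METTL3 is the catalytic subunit, METTL14 holds the RNA and WTAP anchors the pair in nuclear speckles, and it is known for marking transcripts for faster decay and for acting on splicing and translation. SETD2 places the trimethyl mark on lysine 36 of histone H3 along transcribed genes. With less methyltransferase, fewer m6A peaks are the textbook outcome, so peaks that appear in such cells run the other way.

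HepG2 is an established line from a human hepatocellular carcinoma. All cells were transduced with a lentiviral short hairpin RNA (shRNA) and kept under puromycin, the control cells included. The first set of conditions was a non-specific control shRNA, shMETTL3, shMETTL14 (spelled shMETLT14 in part of the labels), shWTAP and shSETD2#1. The other set was shSETD2#2 and its own non-specific control, called the second control here. Each condition had 3 input libraries and 3 libraries of RNA pulled down with an m6A antibody (IP), 42 in all, and the labels do not say whether these came from separate cultures. Each writer was targeted with a single shRNA, per the labels, and how far each target was reduced was not analysed here. Replicates 1 to 3 went into a single exomePeak run per condition, per the labels, so each condition has 1 list, no value has a replicate error, and no p-value between conditions can be given. Intervals below are exact Clopper-Pearson 95% intervals and cover counting error of peaks only. They treat peaks as independent, which neighbouring peaks of a gene and overlapping peaks of a list are not. A peak missing from a list was not called there, and the reads behind each list are unknown. The files give genes only as Ensembl identifiers and do not pair them with symbols, so peaks are named by their position on hg19.

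Absence from the control was not rare among knockdown peaks. It held for 10.6% of the METTL3 list, 12.7% of the METTL14 list and 13.5% of the WTAP list, and for 8.07% of the SETD2 #1 list and 15.6% of the second control list. Of the 3206 METTL3 peaks concerned, 1045 (32.6%, 31.0 to 34.2%) had a partner in both other writer lists, 468 in the METTL14 list alone, 444 in the WTAP list alone and 1249 in neither. Counted from the other ends, 1033 of the 3654 METTL14 gains (28.3%) and 1050 of the 3973 WTAP gains (26.4%) had partners in both other lists. All of these shares rest on the same control list. The share of all METTL3 peaks with partners in both other writer lists is not given here. For 931 members (89.1%), METTL14 and WTAP each had an overlapping peak that was itself absent from the control. For the remaining members, every overlapping peak of at least 1 of these lists reached a control peak. Members shared a median of 150 bases with their METTL14 partner and 150 with their WTAP partner.

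The rule's border was thinly filled. Just inside it, 13 members shared 30 bases or fewer with METTL14 or with WTAP, and 22 members had a control peak within 30 bases. The closest lay 3 bases from a control peak, on chromosome 2 from 235404829 to 235405068 (minus strand, 12.2-fold enrichment, log10 p of -3.31). Just outside it, 43 METTL3 peaks with METTL14 and WTAP partners shared 30 bases or fewer with a control peak. Among these, a peak on chromosome 22 from 24567873 to 24569134 (plus strand, 5.74-fold) shared a single base.

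Members were weaker than the typical peak of each list. Fold enrichment, the authors' ratio of IP over input, ranged from 1.14 to 68.5 in the METTL3 list with a median of 4.40, where the whole list had 7.02. In the METTL14 list the members' partners had a median of 4.85 against 6.71, and in the WTAP list 4.52 against 6.99. Thus 66.4% of members in METTL3, 60.6% in METTL14 and 61.9% in WTAP lay below the list's median. The log10 p of IP against input gave the same order, with a median of -5.19 for members in METTL3 (whole list -12.9), -7.32 in METTL14 (-11.2) and -6.97 in WTAP (-12.7). Compared with the other METTL3 gains, members had better p-values (the others' median log10 p was -3.47) but no higher fold enrichment (their median was 5.07). Members had to be uncalled in the control and called in METTL14 and WTAP. These differences cannot be told apart from that choice. Across the 1045 members, fold enrichment in METTL3 ranked much as in METTL14 (Spearman's rho 0.71) and in WTAP (0.75), and METTL14 as in WTAP (0.76). The log10 p ranked less alike, with a rho of 0.45 between METTL3 and METTL14, 0.40 between METTL3 and WTAP and 0.54 between METTL14 and WTAP. These correlations are descriptions over peaks, some of which share a gene or a partner peak. The same correlations for other matched peaks are not given here, so they are no mark of the members.

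**Figure D1:**
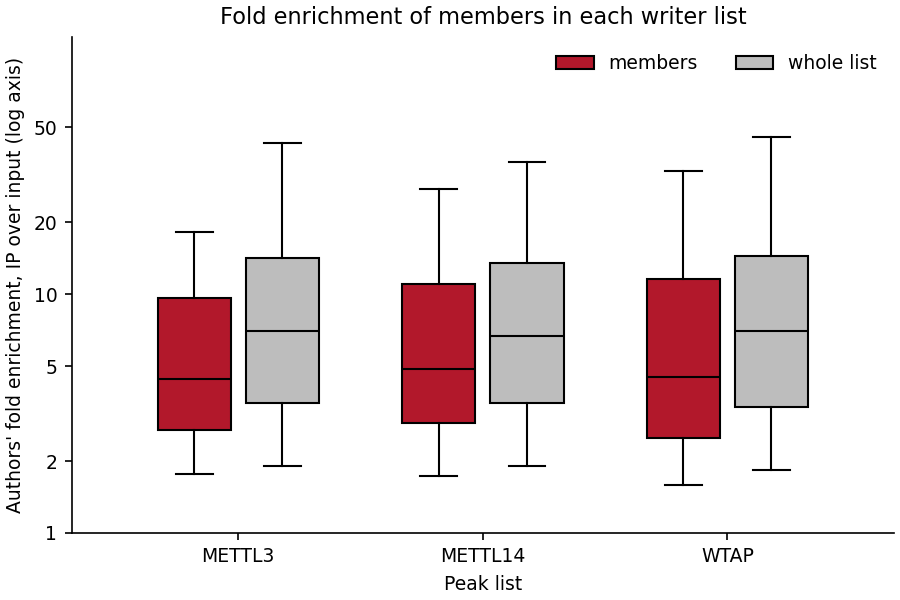
The authors' fold enrichment (IP over input, log axis) of the 1045 members and of whole lists in METTL3, METTL14 and WTAP. Boxes span the 25th to 75th percentile, the line is the median and whiskers reach the 5th and 95th percentile of peaks. Members have medians of 4.40, 4.85 and 4.52, below the whole-list medians of 7.02, 6.71 and 6.99, and the boxes overlap.

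The 10 members with the lowest METTL3 p-values ranged from 2.17-fold to 9.40-fold enrichment in METTL3. On chromosome 19 from 40327228 to 40328450 (minus strand, 2 blocks of 181 bases together), the member had a log10 p of -228 with 2.60-fold enrichment in METTL3. In METTL14 it had 1.42-fold (log10 p -20.7) and in WTAP 1.34-fold (-19.7). SETD2 #1 listed it at 1.19-fold, and the nearest control peak was 2504 bases away. This member was thus carried mainly by the METTL3 list, with enrichment little above 1 elsewhere.

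A member of 4 blocks on chromosome 20 from 2443867 to 2447952 (minus strand) was even across the writer lists, with 2.19-fold in METTL3 (log10 p -197), 2.08-fold in METTL14 (-156) and 2.37-fold in WTAP (-230). The SETD2 #1, second control and SETD2 #2 lists had no peak there. The gene had a single control peak elsewhere, and the nearest control peak on the strand, of whichever gene, was 401 bases away.

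On chromosome 9 from 124072866 to 124073076 (plus strand, 1 block), enrichment was 5.83-fold in METTL3 (log10 p -91.7), 9.22-fold in METTL14 (-510) and 3.63-fold in WTAP (-116), and 2.68-fold in SETD2 #1 (-43.3). On chromosome 15 from 74709004 to 74710269 (minus strand, 4 blocks) it was 7.20-fold in METTL3, 6.48-fold in METTL14 and 9.17-fold in WTAP, with log10 p of -54.0, -69.2 and -104, and no other list held the peak. Both of these members were strong in each writer list and lay in genes with control peaks elsewhere.

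Among members whose p-value was 1e-05 or less in each of the 3 lists, the 10 with the highest enrichment in their weakest list lay between 13.4-fold and 23.8-fold there. The leader, on chromosome 11 from 557953 to 558162 (plus strand), had 23.8-fold in METTL3, 49.4-fold in METTL14 and 25.4-fold in WTAP, and 10.2-fold in SETD2 #1. Its log10 p was -7.12, -18.5 and -9.02 in the 3 writer lists. Its gene had no control peak at all. Next came a member of 4 blocks on chromosome 7 from 150704363 to 150706575 (plus strand), with 23.3-fold, 51.6-fold and 46.8-fold in METTL3, METTL14 and WTAP, absent from SETD2 #1, the second control and SETD2 #2. A member of 7 blocks on chromosome 9 from 133952698 to 133963152 (plus strand) had 21.3-fold, 28.1-fold and 84.4-fold in the same order and was also absent from those lists. These named members are the extremes of the class and not its typical form.

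A stricter class kept only members whose p-value was 1e-05 or less and whose enrichment was 2-fold or more in each of the 3 writer lists, the limits of the authors' shorter lists. It held 285 members (27.3%, 24.6 to 30.1%), all absent from the full control table with its laxer limit. Of these 285, 135 (47.4%) were absent from SETD2 #1, the second control and SETD2 #2 as well.

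The lists that the choice did not use were then searched for the members. The SETD2 #1 list, which shares the control with the writers, held 394 of 1045 members (37.7%, 34.8 to 40.7%), where it held 80% of all METTL3 peaks, 86.3% of those shared with the control and 22.1% (20.3 to 23.9%) of the other METTL3 gains. The second control held 175 (16.7%, 14.5 to 19.2%), against 73.5% of all METTL3 peaks and 18.6% (17.0 to 20.3%) of the other gains. The SETD2 #2 list held 143 (13.7%, 11.7 to 15.9%), against 68.1% of all METTL3 peaks and 14.6% (13.1 to 16.1%) of the other gains. Members stood above the other gains in SETD2 #1, while in the second control and SETD2 #2 the intervals of members and other gains overlapped. By the rule, members recurred in METTL14 and WTAP, of the same set as SETD2 #1, and the other gains did not recur in both. The gap in SETD2 #1 cannot be told apart from this choice. Both classes stood far below the peaks shared with the control. The shares depended on the 1-base overlap: when 50% or more of each peak had to overlap, for absence and for presence, 2418 peaks qualified, of which SETD2 #1 held 57.7%, the second control 38.3% and SETD2 #2 33.5%.

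**Figure D2:**
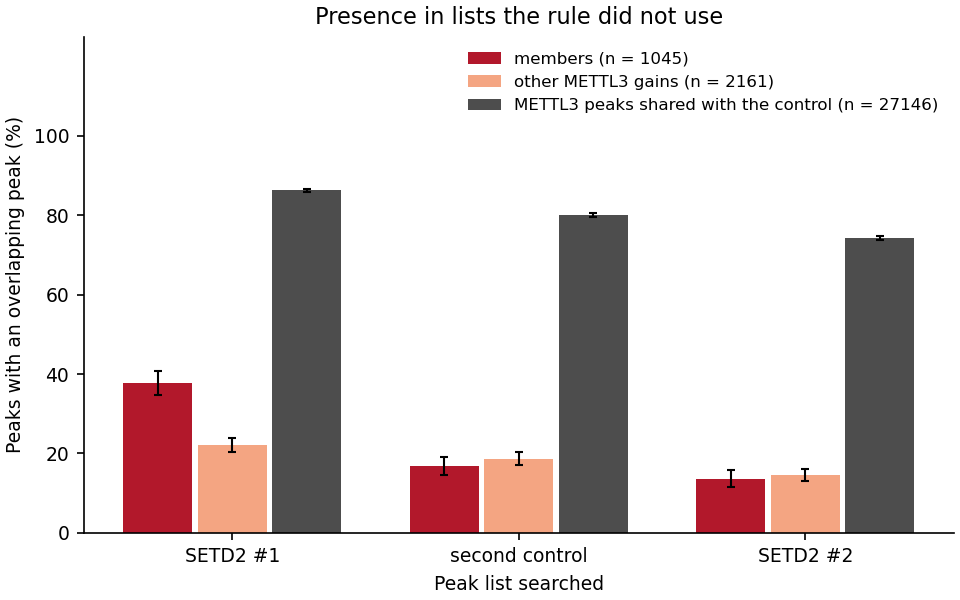
Share of METTL3 peaks with an overlapping peak in the SETD2 #1, second control and SETD2 #2 lists, for members, other METTL3 gains and peaks shared with the control; error bars are exact 95% intervals for counting error. Members reach 37.7% in SETD2 #1 but 16.7% and 13.7% in the lists of the other set, while shared peaks lie between 74.4 and 86.3%.

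METTL3 peaks were cut into 5 equal classes by p-value to set members beside other gains of like p-value. These classes do not remove the choice of members by recurrence in METTL14 and WTAP. The best class held 5 members, of which SETD2 #1 held 3, and 1 other gain, which SETD2 #1 held too. In the class with log10 p from -77.0 to -21.4, SETD2 #1 held 55.3% (44.7 to 65.6%) of 94 members and 34.5% (17.9 to 54.3%) of 29 other gains. In the class with log10 p from -21.4 to -8.26, SETD2 #1 held 45.1% (38.7 to 51.7%) of 237 members, 35.6% (27.9 to 44.0%) of 146 other gains and 91.5% of the shared peaks. In the class from -8.26 to -4.12 it held 38.1% of 310 members, 23.5% of 571 other gains and 77.2% of shared peaks, and in the weakest class 28.6% of 399 members, 19.8% of 1414 other gains and 55.6% of shared peaks. Members thus lay above the other gains in 4 of the 5 classes, with overlapping intervals in the classes from -77.0 to -21.4 and from -21.4 to -8.26. The second control held 19.4%, 19% and 14.5% of members in the 3 classes above -21.4 and 25.3%, 21.2% and 16.7% of the other gains, so here members lay below the other gains in each, with overlapping intervals. Members held by SETD2 #1 had a median log10 p of -6.12 in METTL3, those not held -4.67.

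Over all combinations, 555 members (53.1%) were found in none of SETD2 #1, the second control and SETD2 #2. Another 265 (25.4%) were found in SETD2 #1 alone, 41 in the second control alone, 23 in SETD2 #2 alone and 61 (5.84%) in every list but the control. Among the 555, the lowest METTL3 p-value after the peak on chromosome 20 was on chromosome 17 from 80041466 to 80041980 (minus strand, 3 blocks). This member had 4.14-fold in METTL3 (log10 p -77.2), 1.57-fold in METTL14 (-6.16) and 2.37-fold in WTAP (-33.5). On chromosome 1 from 228336237 to 228336506 (plus strand) the member had 19.3-fold in METTL3, 3.51-fold in METTL14 and 1.43-fold in WTAP, a wide spread between lists that all count as presence.

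The 61 members missing from the control alone were led in METTL3 p-value by a peak of 3 blocks on chromosome 10 from 104356908 to 104375100 (plus strand). It had 6.86-fold in METTL3, 8.21-fold in METTL14, 4.45-fold in WTAP, 4.78-fold in SETD2 #1, 2.84-fold in the second control and 1.94-fold in SETD2 #2. A further one, on chromosome 12 from 63359603 to 63359749 (plus strand), had between 1.99-fold and 4.64-fold in the 6 lists, with log10 p from -19.8 to -98.0, and its nearest control peak was 351582 bases away. For such members the control list is the odd one out, and the writer knockdowns share the peak with the second control.

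Members were narrow. Their median width was 180 bases (quartiles 121 and 211), against 270 bases for METTL3 peaks shared with the control and 121 for the other gains. Sharing no base with a control peak favours narrow peaks, and sharing bases with METTL14 and WTAP peaks favours wide ones. The width differences cannot be told apart from this choice. Yet 454 members (43.4%, 40.4 to 46.5%) consisted of several blocks, that is, were split by introns, compared with 39.1% of shared peaks and 25.3% of the other gains. This share depended on the settings: it was 36.6% of members when 50% or more of each peak had to overlap, and 64.2% of the 285 strict members. On the strands they were even, with 52.4% (49.4 to 55.5%) on the plus strand. Of the members, 27 (2.58%) faced a control peak on the opposite strand, against 11.8% of shared peaks and 1.48% of the other gains.

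Most members were additional peaks of genes that the control list already held. Their genes numbered 873, and 887 members (84.9%, 82.6 to 87.0%) lay in a gene with a control peak elsewhere, compared with 72.5% (70.6 to 74.4%) of the other gains. In genomic bases, introns included, the nearest control peak on the strand was at a median of 1321 bases for members and 2282 for the other gains. It lay within 100 bases for 80 members (7.66%), against 7.27% (6.21 to 8.44%) of the other gains. Beyond 10000 bases it lay for 229 members (21.9%, 19.4 to 24.5%), against 34.2% (32.2 to 36.3%) of the other gains. Few peaks of either class thus bordered a control peak.

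In genes with 3 or more METTL3 peaks, 66.7% (63.2 to 70.0%) of 747 members lay between the gene's outermost peaks, against 51.8% of 15878 shared peaks and 55.7% of 1141 other gains. The 5'-most place was held by 15.8% of members and the 3'-most by 17.5%, against 24.2% and 24.0% of shared peaks. At equal numbers of peaks, 61.5% (53.4 to 69.2%) of members and 49.4% of shared peaks lay between the ends in genes with 4 METTL3 peaks, 71.1% and 59.3% in genes with 5, and 84.8% and 65.4% in genes with 6. In genes with 3 peaks the values were 35.6% (28.6 to 43.0%) and 33.0%. The other gains were not compared at equal numbers of peaks. Whether members lay in coding sequence or untranslated regions was not analysed here.

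The remaining 158 members lay in 138 genes without a control peak. Of these genes, 76 (55.1%, 46.4 to 63.5%) had a peak in SETD2 #1, 29 (21.0%) in the second control and 30 (21.7%) in SETD2 #2. A gene without a control peak may carry unmethylated RNA or too little RNA in these cells, and the peak lists cannot tell these apart.

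Some genes held several members. The 1045 members lay in 873 genes, and the 2161 other METTL3 gains in 1863 genes. A single member was found in 742 genes, 2 in 104 genes, and 3 or more in 27 genes, which held 95 members together. Members that overlapped each other were counted separately. In a gene on chromosome 22 from 21902844 to 21904282 (minus strand), the 4 members were 2 pairs of near-identical calls. Some loci were also listed under more than 1 gene identifier. How many members this concerns was not counted. The gene with most members, ENSG00000142798.17 on the minus strand of chromosome 1, had 8 of them between 22156545 and 22211600. It had 6 peaks in the control list, 14 in METTL3, 21 in METTL14 and 20 in WTAP, but 6 in SETD2 #1, 7 in the second control and 5 in SETD2 #2, and each control peak had a METTL3 counterpart. The members were weak in METTL3, and their partners in the other writer lists had lower p-values. The member from 22182063 to 22182153 had 3.42-fold in METTL3 (log10 p -3.72), 4.31-fold in METTL14 (-70.5) and 4.57-fold in WTAP (-36.8). The member from 22211327 to 22211600 had 1.96-fold (-3.88), 3.93-fold (-70.6) and 4.02-fold (-41.9) in the same order. For both members, the METTL14 and WTAP partners were 480 to 690 bases wide and also covered bases of a control peak. Their p-values are thus not those of the gained bases alone. The member from 22158243 to 22159091 had partners that covered none of the gene's control peaks. Its values were 1.83-fold (-4.6), 3.69-fold (-73.1) and 4.58-fold (-55.3) in that order. Among the 8, the second control held 1, SETD2 #1 held 0 and SETD2 #2 held 0.

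**Figure D3:**
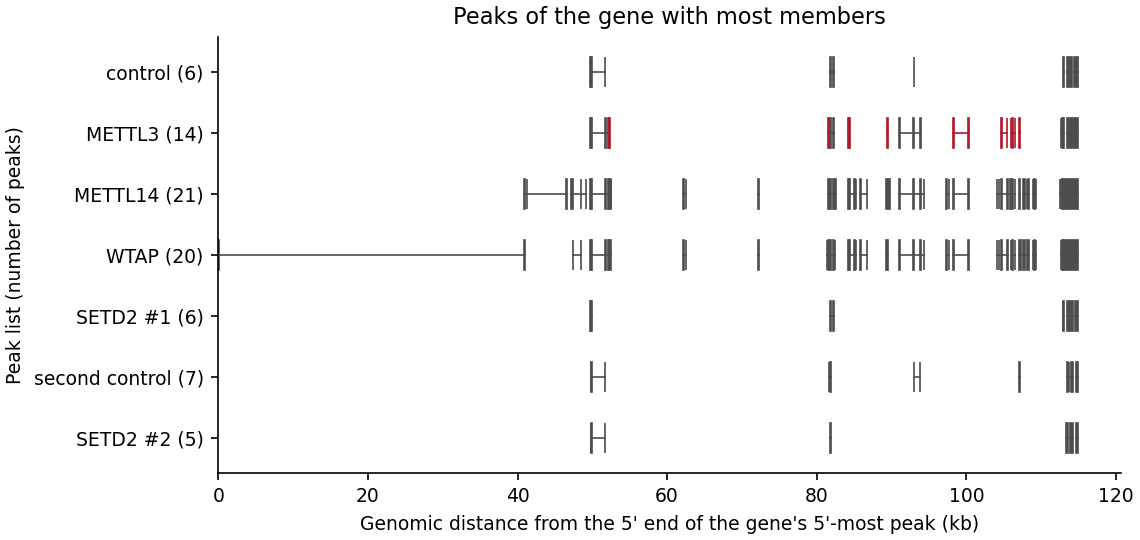
Peaks of the gene with 8 members (ENSG00000142798.17) in the 7 lists, by genomic distance in kb from the 5' end of its 5'-most peak; bars are blocks, thin lines join blocks of a peak across introns, members are red. The METTL3, METTL14 and WTAP rows hold 14, 21 and 20 peaks, the other rows 5 to 7.

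ENSG00000168071.21, on the plus strand of chromosome 11, had 5 members between 64110677 and 64121216, with 9.13-fold to 13.2-fold enrichment in METTL3 and log10 p no better than -3.63. Its first 3 members, within the bases from 64110677 to 64111816, all lay in 1 wide WTAP peak of 200-fold enrichment (log10 p -66.8), so they are 3 METTL3 pieces of a single WTAP call. None of the 5 was held by SETD2 #1, the second control or SETD2 #2. Such sharing was limited: 77 members shared a METTL14 partner with another member and 52 a WTAP partner.

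A pair of further clusters, picked after their values were seen, was compact. On chromosome 10 from 73819123 to 73822092 (minus strand), 4 members stood within 2.97 kb at 3.34-fold to 5.80-fold in METTL3, with log10 p from -52.2 to -18.7, and SETD2 #1 held 1 of them. In METTL14 these members ranged from 1.93-fold (log10 p -3.21) to 4.99-fold (-26.8), and in WTAP from 1.85-fold (-3.8) to 4.63-fold (-31.7). On chromosome 11 from 65652378 to 65655270 (minus strand), 3 members stood within 2.89 kb at 2.98-fold to 5.64-fold in METTL3, and SETD2 #1 held 2. They ranged from 3.46-fold (log10 p -8.25) to 5.48-fold (-38.3) in METTL14 and from 1.78-fold (-3.94) to 4.16-fold (-22.9) in WTAP. In 2 of the 27 genes the control list had no peak, on chromosome 3 from 126138948 to 126155219 (plus strand) and on chromosome 15 from 75967650 to 75969296 (minus strand). SETD2 #1 held all 3 members of the former and 0 of the latter.

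By chromosome, members were most frequent on chromosome 19, with 143 (13.7%, 11.7 to 15.9%), where 9.17% of the shared peaks and 10.7% (9.42 to 12.1%) of the other gains lay. Chromosome 11 held 8.61% (6.98 to 10.5%) of members against 5.67% of shared peaks, and chromosome 22 held 5.36% (4.07 to 6.90%) against 3.36%. Chromosomes 2 (4.02% against 5.82%), 8 (1.91% against 2.94%) and 15 (1.63% against 3.45%) held fewer. Counted by genes, chromosome 19 had 12.9% (10.8 to 15.4%) of the members' 873 genes, beside 8.34% of the genes of shared peaks. Of the 27 genes with 3 or more members, 7 lay on chromosome 19. The base composition of the peaks was not analysed here.

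**Figure D4:**
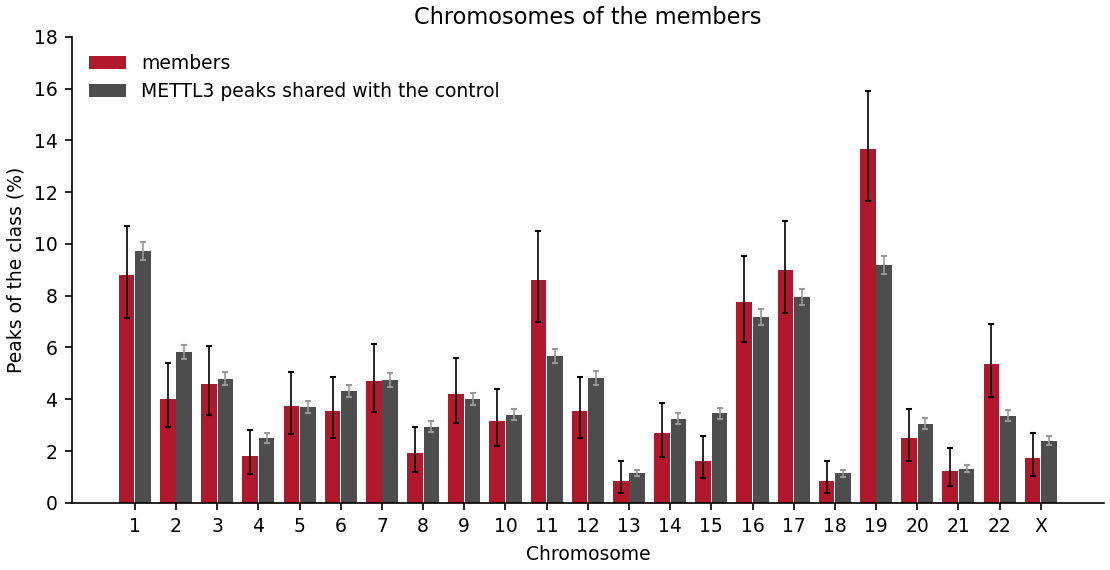
Share of the 1045 members and of the 27146 METTL3 peaks shared with the control on chromosomes 1 to 22 and X; error bars are exact 95% intervals for counting error. Members exceed shared peaks most on chromosome 19 (13.7% against 9.17%), followed by chromosomes 11 and 22.

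The other peaks of the members' genes also differed from those of the rest. The values for the 3 writer lists come from the same lists as the choice of members and are given as a description. The members' genes held 2500 control peaks but 3425 METTL3, 3528 METTL14 and 3528 WTAP peaks, 2547 in SETD2 #1, 2157 in the second control and 1948 in SETD2 #2. Of their control peaks, 15.3% (13.9 to 16.8%) were absent from METTL3, 16.6% from METTL14 and 15.6% from WTAP, where over all control peaks the shares were 22.8%, 29.8% and 28.8%. In each of these 3 lists the share in the members' genes lay below that over all control peaks. For SETD2 #1 the share was 25% (23.3 to 26.7%), beside 27% over all control peaks.

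In the other set the order was turned. Of the control peaks in the members' genes, 36.2% (34.3 to 38.1%) were absent from the second control, against 28.6% over all control peaks, and 42.5% (40.6 to 44.5%) were absent from SETD2 #2, against 34.4%. Genes with other METTL3 gains only gave 34.2% and 39.3%. In the comparison of SETD2 #2 with its own control, which used none of the lists of the rule, 24.6% (22.8 to 26.4%) of the 2157 second control peaks in the members' genes were absent from SETD2 #2, against 20.2% (19.7 to 20.6%) in all other genes.

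Widths went the same way as presence. Of the control peaks in the members' genes that matched a METTL3 peak 1 to 1, 41.5% (39.1 to 43.8%) were wider in METTL3 and 39.6% narrower. In genes without METTL3 gains, 20.5% (19.9 to 21.1%) were wider and 59.5% narrower. METTL14 gave 43.0% wider in the members' genes against 18.9%, and WTAP 41.6% against 18.8%. For SETD2 #1 the gap was smaller, 23% (20.9 to 25.2%) against 15.8% (15.2 to 16.3%). In the second control it was reversed, with 18.7% (16.6 to 20.9%) wider in the members' genes and 25.9% (25.2 to 26.6%) in genes without gains, and likewise in SETD2 #2 (16.1% against 23.9%). This reversal did not hold in genes with 1 control peak, where 34.6% against 28.7% were wider in the second control and 29.9% against 24.3% in SETD2 #2. The METTL3 order held at each number of control peaks per gene: with 1, 2, 3 and 4 or more control peaks, 38.3%, 34.8%, 40.9% and 43.2% were wider in the members' genes and 18.7%, 18.5%, 20.3% and 22.9% in genes without gains. The read depth of these genes in input and IP was not analysed here, and its part in the result was not tested.

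**Figure D5:**
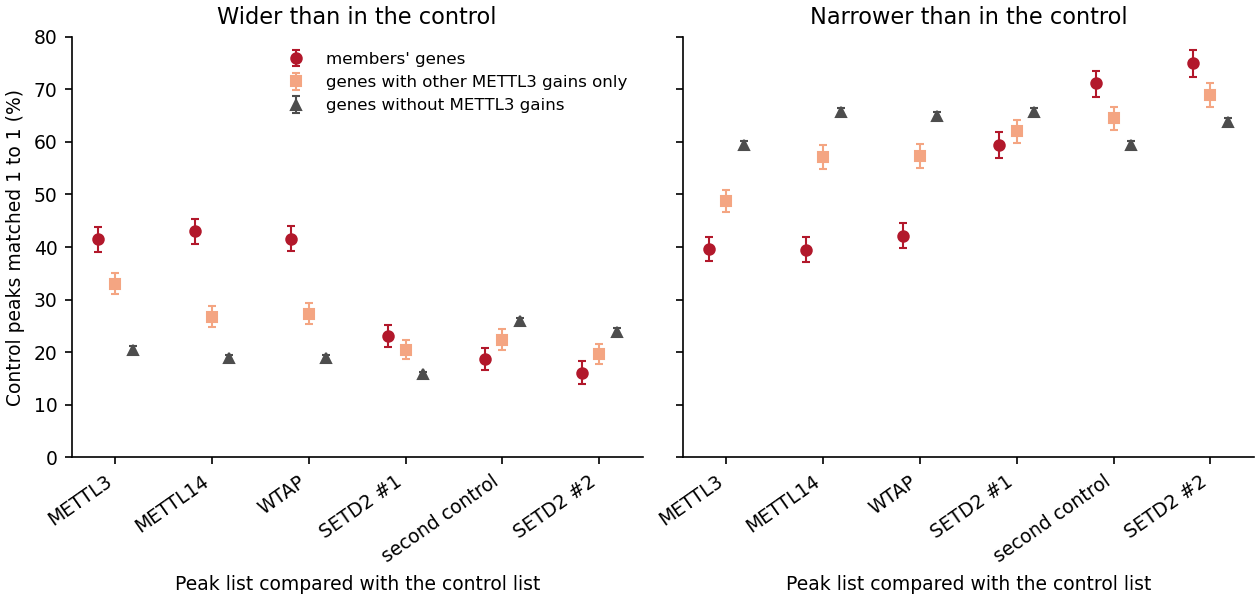
Share of control peaks matched 1 to 1 that were wider (left) or narrower (right) in each other list, for the members' genes, genes with other METTL3 gains only and genes without METTL3 gains; error bars are exact 95% intervals for counting error. In METTL3 (41.5 and 39.6%), METTL14 and WTAP about as many peaks of the members' genes are wider as narrower, while in the second control and SETD2 #2 the members' genes have the smallest share wider.

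The control used for the choice mattered for how many peaks qualify. With the second control in place of the control, 4146 METTL3 peaks were absent from it and had partners in METTL14 and WTAP. Absence from both controls left 870. With SETD2 #1 in place of WTAP the count was 548, and in place of METTL14 it was 501, so fewer METTL3 gains had a SETD2 #1 partner together with 1 other writer than had both other writers.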

How the data were processed

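Per the labels, mRNA of HepG2 cells was fragmented by sonication, part of it was pulled down with an m6A antibody, and stranded libraries were sequenced. FastQC 0.11.5 and TopHat2 2.1.1 were used with the hg19 build, per the submitters' processing notes. For exomePeak, the version is not given in the sources used here, nor is the annotation. Each deposited table holds, per peak, the authors' p-value of IP against input, the log10 of p and of the false discovery rate (FDR) as scores, and the fold enrichment as a linear ratio. The shorter deposited lists, which give p-values alone, held exactly the peaks whose p-value was 1e-05 or less and whose fold was 2 or more. Rows with equal strand and blocks were counted once (11 to 21 removed per list). Peaks of a list that overlapped without equal blocks were counted separately.

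Overlaps used bedtools 2.31.1 and the rest Python 3.11.15, numpy 2.4.6, pandas 2.3.3, scipy 1.17.1 and matplotlib 3.10.9. A partner was the peak sharing most block bases. A match 1 to 1 had no other overlap on either side. The rule was checked on simulated lists made of subsets of the METTL3 list. Partners there were copies of METTL3 peaks, so partial overlaps and merged peaks were not checked. Members, lists and comparisons were chosen with earlier results of these data known. Named peaks were the 10 with the lowest METTL3 p, the 10 with the highest lowest fold among those at p of at most 1e-05 in the 3 lists, the 10 best by p absent from, or present in, all lists outside the rule, genes with 3 or more members, and peaks at the rule's border. Of these the text gives a part. Gene lists could not be used, because 0 of the 13321 gene identifiers of the METTL3 list matched a symbol. No genome of the build was used, so no peak sequence is shown.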

Additional observations from a re-analysis of the deposited data

How the results depend on the processing

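No paired analysis was possible because every list merges replicates 1 to 3. For that reason, leaving out single replicates was not possible either. Motifs and their windows were not run without a genome. Read depth, unknown here, limits which weak peaks are called. Each alternative changes the members, and for values that changed the cause was not tested. Whole spans, no control peak within 100 bases, starting from METTL14 or WTAP, and partner peaks absent from the control too (the last chosen after seeing the data, as were all width and loss shares) left every share of members within the interval reported and the count between 931 and 1050.

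The member count was 2418 when 50% or more of each peak had to overlap and 285 with the strict limits in the 3 lists, and 4146, 548 and 501 with the second control as control, SETD2 #1 for WTAP and SETD2 #1 for METTL14. With 50% overlap the shares were 57.7% in SETD2 #1, 38.3% in the second control, 33.5% in SETD2 #2 and 95.6% in genes with a control peak, with 32.7% of matched peaks wider and 51.9% of control peaks absent from the second control. With an FDR of at most 1e-05 they were 32.9%, 13.1%, 10.6% and 79.6%, with 33.8% absent from the second control. With fold of at least 3, SETD2 #2 held 10.6%, genes with a control peak 81.6%, 36.5% were wider and 43.3% absent. In the shorter lists the second control held 12.3%, SETD2 #2 9.77% and genes with a control peak 80.7%. With the strict limits SETD2 #1 held 43.9%, genes with a control peak 94.0%, 46.8% were wider and 34.0% absent. The share of several blocks was 36.6% with 50% overlap, 49.4% with fold of at least 3, 55.7% in the shorter lists, 56.2% with the FDR limit and 64.2% with the strict limits, and the chromosome 19 share was 10.5% with 50% overlap and 17.5% with the strict limits.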
